A study of Mus musculus with 44 samples.

Results

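H3K27ac, the acetylation of lysine 27 of histone H3, was mapped in granulosa cells of 2 mouse lines without added ligand, and the compared data are 4 of the 44 samples of the series: replicates 1 and 2 of Smad2HA/+ cells and replicates 1 and 2 of Smad3PA/PA cells, all treated with vehicle for 4 h. The samples were taken by antibody, genotype and treatment alone, so no measured value chose them. In Smad2HA/+ mice 1 allele of Smad2 carries a hemagglutinin (HA) tag at the C terminus of its protein. In Smad3PA/PA mice both alleles of Smad3 carry a podoplanin (PA) tag at the N terminus. Both tags sit in the endogenous genes and are carried throughout the body. Per the study's methods, the cells came from pools of 8 females of 3 to 4 weeks on a mixed C57BL/6J and 129S5/SvEvBrd background, were collected 46 h after 5 IU of pregnant mare serum gonadotropin and were cultured for 4 days. About 55000 cells went into each CUT&RUN reaction, an assay in which a nuclease tethered to an antibody cuts out the bound chromatin. No wild-type sample is among those compared, and line, culture and sequencing depth cannot be told apart. Whether the 2 replicates of a line came from separate pools is not stated, so their spread may be technical.

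H3K27ac marks the nucleosomes at active promoters and enhancers, and is laid down by the acetyltransferases p300 and CBP. Long runs of marked chromatin are typical of genes that define a cell type. Granulosa cells are the somatic cells that surround the oocyte, make estradiol and inhibin and respond to follicle-stimulating hormone. SMAD2 and SMAD3 are the transcription factors that carry signals of the TGF-beta family, such as activin and the oocyte's GDF9, to the genome. A peak here is an unbroken block of coverage that the caller SEACR kept, and each line's peaks were called library by library.

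The 4 sequences that follow are examples of places that the comparison met. The first is the summit of the wide Smad2HA/+ peak of replicate 1 that held the most Smad3PA/PA peaks, in an intron of Macf1 (chr4:123572927-123573126, plus strand). The second is from a region found only in the Smad2HA/+ vehicle lists, in an intron of Itga9 (chr9:118737748-118737947, plus strand). The third is from a region found only in the Smad3PA/PA vehicle lists, between genes and nearest to Irf2 (chr8:46687037-46687236, plus strand). The last is the 250 bases before the start of Sfrp2 (chr3:83766071-83766320, plus strand), a promoter met only by Smad2HA/+ peaks among the vehicle lists. All 4 are GRCm38 sequence from RefSeq, written 5′ to 3′. Capitals mark matches, on either strand, to the 6 short motifs named further on.
Macf1 summit: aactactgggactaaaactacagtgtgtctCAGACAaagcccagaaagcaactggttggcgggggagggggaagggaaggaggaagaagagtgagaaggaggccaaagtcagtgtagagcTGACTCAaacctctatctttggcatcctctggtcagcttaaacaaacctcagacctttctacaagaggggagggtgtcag
Itga9 summit: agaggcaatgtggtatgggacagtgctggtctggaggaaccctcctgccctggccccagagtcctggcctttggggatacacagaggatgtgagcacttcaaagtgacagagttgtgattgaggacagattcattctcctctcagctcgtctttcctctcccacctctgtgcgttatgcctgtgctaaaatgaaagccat
Irf2 summit: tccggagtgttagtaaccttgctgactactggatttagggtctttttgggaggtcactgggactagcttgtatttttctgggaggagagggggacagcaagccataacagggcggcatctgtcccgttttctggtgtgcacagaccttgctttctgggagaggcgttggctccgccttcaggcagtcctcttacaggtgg
Sfrp2 promoter: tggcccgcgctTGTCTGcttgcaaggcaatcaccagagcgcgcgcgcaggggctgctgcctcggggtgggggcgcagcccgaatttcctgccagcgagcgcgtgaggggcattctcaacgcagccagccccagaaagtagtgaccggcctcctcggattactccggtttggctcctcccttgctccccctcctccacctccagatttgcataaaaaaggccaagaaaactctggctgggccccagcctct
The Macf1 summit holds 1 match to the AP-1 motif and 1 to the SMAD motif, the Sfrp2 promoter holds 1 SMAD match, and the other two hold no match. The Macf1 summit lies in a peak of all 4 lists.

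Peaks were called as long blocks in the Smad2HA/+ lists and as short ones in the Smad3PA/PA lists. In every pair of lists most bases of the short peaks lay in long ones, but most bases of the long peaks lay in no short one. On chromosomes 1 to 19, X and Y, the Smad2HA/+ lists held 10414 and 9754 peaks and the Smad3PA/PA lists 29381 and 29241, that is, 2.91 times as many. The median width was 26.7 and 29.3 kb in the Smad2HA/+ lists and 3.02 and 3.29 kb in the Smad3PA/PA lists. The groups did not overlap, and the median of Smad2HA/+ peaks was 8.88 times that of Smad3PA/PA peaks (28.0 ± 1.78 kb against 3.15 ± 0.190 kb, SD, n = 2). The middle 50% of Smad2HA/+ widths ran from 16.0 to 55.4 kb in replicate 1 and from 17.7 to 60.2 kb in replicate 2. The same quartiles of the Smad3PA/PA lists were 2.34 and 4.46 kb and 2.53 and 4.86 kb. Peaks under 5 kb made up 79.6% and 76.1% of the Smad3PA/PA lists but 0.202% and 0.133% of the Smad2HA/+ lists.

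**Figure D1:**
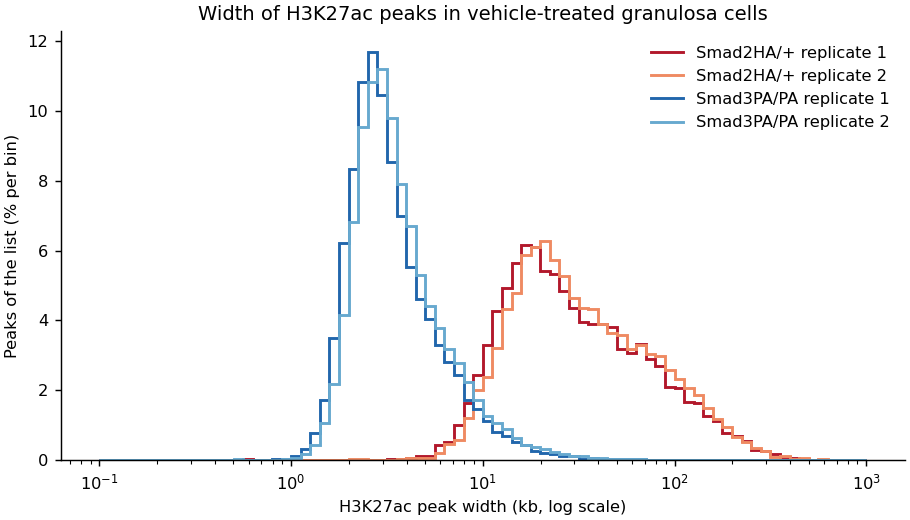
Width of H3K27ac peaks in the 4 vehicle lists, as the percentage of each list's peaks per bin, with width on a log axis in kb. The curves of the 2 replicates of a line lie close to each other, and the medians of 26.7 and 29.3 kb (Smad2HA/+) and 3.02 and 3.29 kb (Smad3PA/PA) lie far apart.

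The widest Smad2HA/+ peaks were 467 kb in replicate 1, over Asap1 and Fam49b, and 628 kb in replicate 2, over the start of Foxp1, a forkhead transcription factor. The widest Smad3PA/PA peaks were 100.5 kb, at Fndc3b, and 73.2 kb, at Nedd4, a ubiquitin ligase. Smad2HA/+ lists had 1099 and 1160 peaks over 100 kb, and Smad3PA/PA lists had 1 and 0.

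Smad2HA/+ peaks covered 472 and 471 Mb, 17.3% of the genome in each list. Smad3PA/PA peaks covered 119 and 130.15 Mb, or 4.37% and 4.78%. The groups did not overlap, and the covered length was 3.79 times as large in Smad2HA/+ cells, or 7.91 times with the same number of peaks in every list. For width, covered length and number of peaks, the exact permutation test over the 4 lists (two-sided) gave p = 0.333, the smallest value that 2 lists against 2 can give.

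Depth differed in the same direction. The deposited signal is coverage scaled to E. coli spike-in fragments, and the highest value of nearly every peak was a whole multiple of 1 step per library, which is the worth of 1 fragment. In these units the median peak reached 124 and 128 overlapping fragments in the Smad2HA/+ lists and 12 and 13 in the Smad3PA/PA lists, and the lowest peak kept by the caller reached 19 in each Smad2HA/+ list and 4 in each Smad3PA/PA list. The steps imply 493040 and 508480 E. coli fragments in Smad2HA/+ libraries against 82930 and 69190 in Smad3PA/PA libraries. Summed over peaks, coverage was 12.6 Gb of fragments in each Smad2HA/+ list and 0.671 and 0.783 Gb in the Smad3PA/PA lists, a ratio of 17.4. On the authors' spike-in scale the median maximum of a peak was 25.2 in each Smad2HA/+ list and 14.5 and 18.8 in the Smad3PA/PA lists, while the mean signal per base in peaks was 5.42 and 5.25 in Smad2HA/+ lists and 6.80 and 8.69 in Smad3PA/PA lists. The part of depth in the widths was not tested, and total library sizes are unknown from peak lists.

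The median widths of the lines also did not overlap in the lists of GDF9-treated cells of the same lines, 4 libraries that are separate from those compared. Their median widths were 18.6 and 21.5 kb in Smad2HA/+ cells and 2.94 and 2.98 kb in Smad3PA/PA cells. The numbers of peaks were 13314 and 12099 against 27754 and 27587.

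Most narrow peaks lay inside wide ones. Of Smad3PA/PA peaks, 90.8% and 89.4% of replicate 1 lay wholly within a peak of Smad2HA/+ replicates 1 and 2, and 90.9% and 89.5% of replicate 2 did (mean over the 4 pairs of lists 90.2% ± 0.823, SD). In the other direction, at most 1 Smad2HA/+ peak lay inside a Smad3PA/PA peak in any pair of lists. Between replicates, 80.4% and 78.0% of Smad3PA/PA peaks and 88.8% and 92.8% of Smad2HA/+ peaks met, by at least 1 bp, a peak of the other replicate. Over bases, Smad2HA/+ peaks covered 93.8% to 94.8% of the Smad3PA/PA peaks, and Smad3PA/PA peaks covered 23.7% to 26.1% of the Smad2HA/+ peaks. The bases shared, as a fraction of the bases in either list, came to 0.766 between Smad2HA/+ replicates, 0.541 between Smad3PA/PA replicates, and 0.233 to 0.258 between lines.

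Of the Smad2HA/+ peaks, 82.3% to 84.1% held at least 1 Smad3PA/PA peak, depending on the pair of lists. Those that held just 1 made up 36.3% to 38.6%, and those that held 2 or more 44.0% to 47.2%. The 493 to 525 wide peaks that held 10 or more took in 26.6% to 28.1% of all contained Smad3PA/PA peaks. The number held rose with width: the median was 1 for peaks of 20 to 50 kb, 4 for peaks of 50 to 100 kb and 9 for peaks over 100 kb in every pair of lists. Per 100 kb, peaks of 20 to 50 kb held 4.62 to 4.77 narrow peaks and peaks over 100 kb 6.10 to 6.21. The few Smad2HA/+ peaks under 10 kb were the most densely filled, with 10.6 to 10.8. Within the wide peaks that held any, narrow peaks took up only 25.7% to 28.4% of the length.

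**Figure D2:**
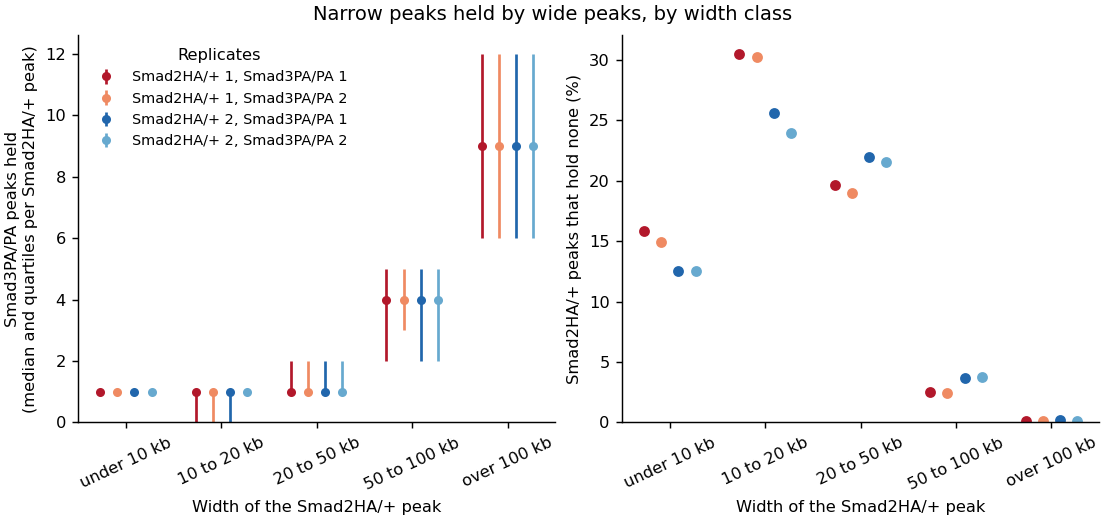
Left, number of Smad3PA/PA peaks held by a Smad2HA/+ peak (median as a point, quartiles as a bar) by width class of the Smad2HA/+ peak. Right, percentage of Smad2HA/+ peaks that hold none. Each color is 1 of the 4 pairs of replicate lists, and the median goes from 1 in the classes under 50 kb to 4 and then 9 in the widest.

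Among the wide peaks that held a narrow one, the Smad2HA/+ summit lay in a Smad3PA/PA peak in 94.5% to 94.9% of cases. The 15.9% to 17.7% of wide peaks that held none are not in that share. Wide peaks that held none were narrower (median 18.5 to 21.4 kb against 31.8 to 34.2 kb) and lower (median maximum 61.5 to 64.0 fragments against 139 to 143). The Smad3PA/PA peaks outside wide peaks were, likewise, shorter (2.34 to 2.53 kb against 3.13 to 3.44 kb) and slightly lower (10 to 11 fragments against 12 to 13).

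The 5 peaks of each Smad2HA/+ list that held the most narrow peaks spanned 353 to 447 kb. In replicate 1 the first was a peak of 353 kb at Macf1, which encodes a linker of actin and microtubules (chr4:123339991-123692956), and it held 38 and 32 peaks of the Smad3PA/PA replicates. Its counterpart in replicate 2 (389 kb) held 40 and 34. The peak over Esr2 and Syne2 (chr12:75779738-76180934, 401 kb) held 30 and 33 peaks, and its counterpart (390.1 kb) also held 30 and 33. Esr2 encodes estrogen receptor beta, the main estrogen receptor of granulosa cells. A peak at Rere, a nuclear receptor corepressor, held 33 and 36 in replicate 1 and 31 and 35 in replicate 2. These 3 places stood among the first 5 in both lists. The others were at Zbtb20 and at the Gsr to Rbpms interval in replicate 1, and at Myc and at the Adsl to Tnrc6b interval in replicate 2.

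**Figure D3:**
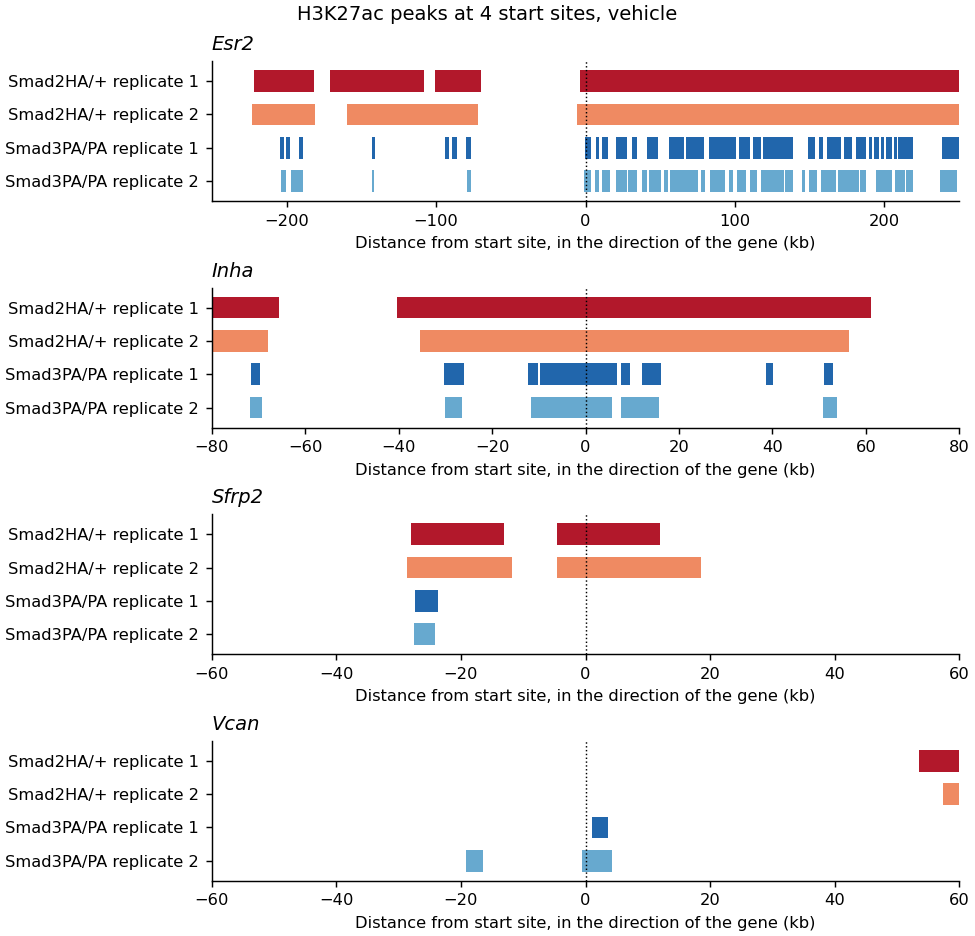
H3K27ac peaks of the 4 vehicle lists near the start sites of Esr2, Inha, Sfrp2 and Vcan, as bars along the distance from the start site in kb. At Esr2 and Inha wide Smad2HA/+ peaks span many short Smad3PA/PA peaks, the Sfrp2 start lies only in Smad2HA/+ peaks, and near the Vcan start only Smad3PA/PA lists have a peak.

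Genes fell under these blocks in different numbers. A protein-coding start site lay in 57.1% and 58.8% of Smad2HA/+ peaks and in 27.8% and 28.3% of Smad3PA/PA peaks. A peak with a start site held 1.85 and 1.87 genes on average in the Smad2HA/+ lists, up to 31 and 33, and 1.15 genes in each Smad3PA/PA list, up to 9. A start inside a wide peak is therefore often that of a neighbor. With promoters taken as 3 kb on either side of a start, 47.9% of the 21911 protein-coding genes had a promoter met by both Smad2HA/+ lists and 41.6% had one met by both Smad3PA/PA lists. In 8523 genes (38.9%) both lists of both lines did so. Genes met by both Smad2HA/+ lists and neither Smad3PA/PA list numbered 1150 (5.25%), and the reverse class held 251 (1.15%).

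Against those backgrounds, the gene lists gave similar counts in both lines. Where a promoter met several peaks of a list, the widths given are their sum. Of 18 granulosa cell identity genes, 14 had a promoter met by both Smad2HA/+ lists and 13 by both Smad3PA/PA lists. Inha encodes the alpha subunit of inhibin, and the peaks at its promoter were 101 and 91.8 kb wide in Smad2HA/+ cells and 16.6 and 17.4 kb in Smad3PA/PA cells. They reached 211 and 191 fragments and 20 and 21 fragments. Gata4, a transcription factor of granulosa cells, had the broadest marking of the list in Smad3PA/PA cells: 2 peaks with 41.6 and 40.0 kb in all, against 162 kb in each Smad2HA/+ list. At Foxl2, the factor that keeps granulosa identity, the widths were 34.0 and 30.8 kb and 8.88 and 13.3 kb. Nr5a1, which encodes a nuclear receptor that drives steroid synthesis genes, had 86.5 and 85.8 kb and 4.35 and 4.24 kb. At each of these genes every Smad2HA/+ peak was wider than every Smad3PA/PA peak. The promoters of Cyp19a1, the aromatase that makes estradiol, and of Lhcgr, the receptor for luteinizing hormone, met no peak in any list. Fshr, the receptor for follicle-stimulating hormone, met 1 peak of 3.10 kb, in Smad3PA/PA replicate 1.

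All 15 genes of steroid and cholesterol synthesis were met by both Smad2HA/+ lists, and 14 by both Smad3PA/PA lists. Star moves cholesterol into mitochondria, and its promoter lay in 334 and 281 kb of Smad2HA/+ peaks and in 18.3 and 24.9 kb of Smad3PA/PA peaks. Cyp11a1, which cuts the cholesterol side chain, had 50.2 and 60.4 kb and 15.5 and 13.5 kb. Hsd3b1, the next enzyme of that route, had 61.9 and 64.2 kb and 13.2 and 12.5 kb. Prlr, the prolactin receptor, was the exception, with 53.9 and 87.6 kb in Smad2HA/+ cells and 2.93 kb in Smad3PA/PA replicate 2 alone.

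Of 27 genes of the TGF-beta and SMAD pathway, 24 and 23 were met in both lists of the lines. Both tagged genes were among them. At Smad2 the peaks were 79.3 and 83.1 kb wide in Smad2HA/+ cells and 15.4 and 17.1 kb in Smad3PA/PA cells, and at Smad3 they were 73.0 and 128 kb and 5.49 and 5.91 kb. The inhibitory Smad7 lay in 74.0 and 299 kb of Smad2HA/+ peaks, a spread between replicates of 1 line that shows how far a single unbroken run can extend the width, and in 30.6 and 30.2 kb of Smad3PA/PA peaks. The type I receptor gene Bmpr1b had 163 and 147 kb and 31.1 and 31.9 kb.

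The immediate early genes were met in 12 and 11 of 12 cases, and the housekeeping genes in 12 of 12 in both lines. Median widths at housekeeping promoters were 102 and 65.2 kb in Smad2HA/+ lists and 8.61 and 9.31 kb in Smad3PA/PA lists. At the granulosa identity promoters met by a list they were 101 and 99.7 kb and 8.24 and 13.1 kb, so wide peaks were not confined to identity genes. Cumulus expansion and ovulation genes were low in both, with 3 and 4 of 12. Ptgs2, the prostaglandin synthase of ovulation, had 37.4 and 86.1 kb and 4.80 and 5.50 kb. Vcan, a matrix proteoglycan, met peaks of 2.60 and 4.82 kb in Smad3PA/PA cells, with 9 and 12 fragments, and none in vehicle Smad2HA/+ cells, although 1 of the 2 GDF9 lists of Smad2HA/+ cells had one. Pgr, Areg and Ptx3 met no peak in any of the 4 vehicle lists, and Has2 met 1 in Smad2HA/+ replicate 1 alone, with 34 fragments.

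Markers of other cells were mostly unmarked, as were genes of other tissues. The counts, Smad2HA/+ first, were 3 and 3 of 12 for theca and stroma, 1 and 0 of 6 for endothelium, 1 and 2 of 6 for leukocytes, 3 and 1 of 7 for surface epithelium, 2 and 1 of 9 for oocyte and 0 and 0 of 12 for other tissues. Pecam1 encodes an adhesion protein of endothelium. Its promoter met peaks of 28.2 and 29.8 kb in Smad2HA/+ cells, with maxima of 190 and 189 fragments, and none in Smad3PA/PA cells. Each of these Smad2HA/+ peaks still held 3 and 2 peaks of Smad3PA/PA replicates 1 and 2, outside the promoter. The other 5 endothelial genes, Cdh5, Kdr, Tek, Emcn and Tie1, met no peak in any of the 4 lists. The promoter of Krt18, a keratin of simple epithelia, met peaks of 54.9 and 36.8 kb in Smad2HA/+ cells alone. The first of these held 3 peaks of each Smad3PA/PA list and the second 2, and the neighbor Krt8 met peaks in all 4 lists. The part of other cells in the difference between lines was not tested. The oocyte gene Gdf9 met 213 and 215 kb of Smad2HA/+ peaks and 6.78 and 5.93 kb of Smad3PA/PA peaks, with 10.1 normalized RNA counts per kb in the Smad3PA/PA cells.

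RNA was sequenced in the Smad3PA/PA cells alone. With vehicle, the 2 libraries held 8827825 and 11416005 reads in genes, and 19175 of the protein-coding genes had a value. Genes whose promoter was met in both lines had a median of 144 and 143 normalized counts per kb of exon in the 2 replicates. Genes met only in Smad3PA/PA cells followed with 36.6 and 36.0, genes met only in Smad2HA/+ cells with 4.95 and 5.32, and genes met in neither with 0 and 0. The order of the 4 classes was the same in both replicates, with no test, since genes are not replicates. At least 10 normalized counts were reached by 96.2% of genes in the first class, 86.9% in the second, 51.7% in the third and 21.4% to 21.7% in the last.

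**Figure D4:**
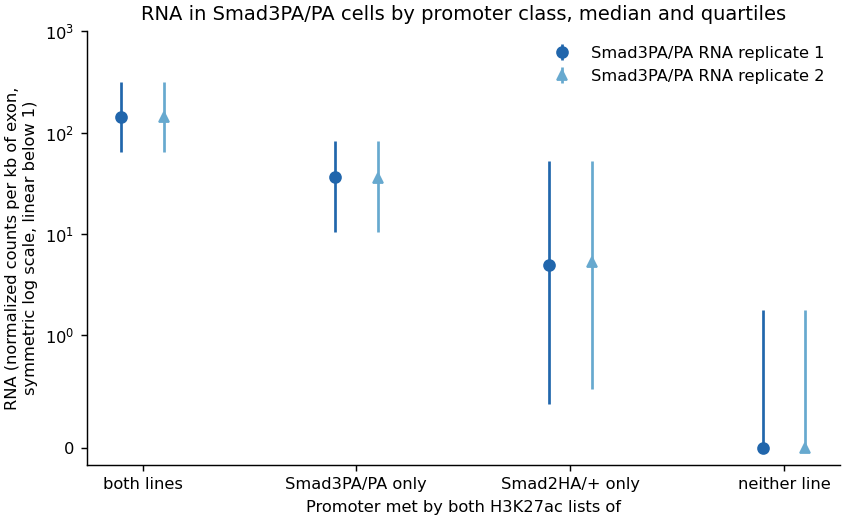
RNA of vehicle-treated Smad3PA/PA cells by promoter class, as median (point) and quartiles (bar) of normalized counts per kb of exon on a symmetric log axis, for 2 replicates. Medians descend from 144 and 143 (both lines) over 36.6 and 36.0 (Smad3PA/PA only) and 4.95 and 5.32 (Smad2HA/+ only) to 0 (neither).

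A promoter without a Smad3PA/PA peak was thus not always silent in Smad3PA/PA cells. Krt18 had 806 and 842 normalized counts per kb there. The gene of this class with the most RNA, chosen after its values were seen, was Sfrp2, a secreted modulator of Wnt signals, with 4512 and 4360. Igfbp2, which binds insulin-like growth factors, followed with 2737 and 2843, and Fstl1, a follistatin-like secreted protein, with 2353 each. Among genes met only in Smad3PA/PA cells the leading values were lower: Lyrm2 had 477 and 474, and Psat1, an enzyme of serine synthesis, 372 and 357.

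Regions present in only 1 line were counted next, and their numbers moved with the lists used. Places where both replicates of a line had overlapping peaks numbered 8308 in Smad2HA/+ cells and 21336 in Smad3PA/PA cells. Of these, 542 (6.52%) and 1036 (4.86%) met no peak in either list of the other line. Smad2HA/+-only regions had a median width of 23.5 kb and 15.4 Mb in all, and Smad3PA/PA-only regions 2.86 kb and 3.08 Mb. Both sets were lower than the regions met by both lists of the other line. The median percentile of their maximum within its list was 11.6 and 11.5 for Smad2HA/+ and 42.3 and 43.7 for Smad3PA/PA. For the regions met by both lists of the other line it was 63.9 and 61.4 and 59.3 and 65.3. The Smad3PA/PA set lay near the middle of its lists, with median maxima of 11 and 12 fragments against 12 and 13 over all peaks. With the same number of peaks in every list, the counts became 2479 for Smad2HA/+ and 64 for Smad3PA/PA, so the line with more of them changed, and with the 50% of peaks with the highest maximum they became 69 and 1176. Without Smad2HA/+ replicate 1 or 2, or Smad3PA/PA replicate 1 or 2, there were 1078, 1249, 829 and 898 Smad2HA/+-only regions, and 1694, 1348, 1974 and 2023 Smad3PA/PA-only regions, as a region then needs fewer lists to qualify.

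Both sets met promoters less often than shared regions did, but the shared regions were wider. Median widths were 43.8 against 23.5 kb for Smad2HA/+ and 4.61 against 2.86 kb for Smad3PA/PA, and the shares were not matched for width. A promoter was met by 27.5% of Smad2HA/+-only regions and by 71.3% of those shared with both other lists. For Smad3PA/PA the shares were 25.6% and 39.7%. Smad2HA/+-only regions lay in genes without a promoter in 43.7% of cases and outside genes in 28.8%, whereas Smad3PA/PA-only regions lay outside genes in 45.8%, compared with 13.7% of shared ones. GC content was 42.4% in the former, against 44.1% in shared Smad2HA/+ regions, and 44.4% in the latter, against 45.1%.

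The GDF9 lists, which the definition did not use, held part of each set. Of the 542 Smad2HA/+-only regions, 427 (78.8%) were met by both GDF9 lists of that line and 37 (6.83%) by both GDF9 lists of Smad3PA/PA cells. Of the 1036 Smad3PA/PA-only regions, 525 (50.7%) were met by both GDF9 lists of their own line and 307 (29.6%) by both of the other. By the same definition 287 (53.0%) and 176 (17.0%) were again found only in their line, compared with 0.969% and 0.0621% of the shared regions. The difference between these shares was not tested. Median maxima in the line-only sets were 61.5 and 62 fragments for Smad2HA/+ and 11 and 12 for Smad3PA/PA.

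Of the Smad2HA/+-only regions, the first 10 by height reached 127 to 275 fragments in replicate 1, where the median of shared regions was 150. The first was a region of 15.5 kb at Rbbp8, a DNA repair gene, with maxima of 275 and 269 fragments, whose summit window was repeat over 100% of its 300 bases. The next was the region of 34.0 kb in Itga9, an integrin subunit gene, with 185 and 221. A region of 27.5 kb over the start of Hspb8, a small heat shock protein gene, reached 132 and 156. One of the first 10, with 137 and 178, had Smad2, the gene that carries the tag in this line, as its nearest gene, about 84 kb away. All of the first 10 were met by both GDF9 lists of Smad2HA/+ cells, and 7 of them by no GDF9 list of Smad3PA/PA cells. The first 10 Smad3PA/PA-only regions were narrow, from 0.298 to 2.77 kb. The first, 35.4 kb from Pak3, was 0.298 kb wide with 425 and 480 fragments, far above the median of 12 and 13, and the others named by a gene within 100 kb lay at Dpy19l1, Cr2, Axin2, Gm21119, E030030I06Rik, Irf2 and Kbtbd8. Of these 10 regions, 6 met no GDF9 list of Smad2HA/+ cells.

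Short motifs were counted in the windows of 300 bp at the summits, as a description with no test. The letters searched on both strands were AAGGTCA for NR5A1 and NR5A2, TGANTCA for AP-1, AGATAA for GATA factors, TGTTTAC for forkhead factors, GGAATG for TEAD factors and CAGACA for SMADs, none of which contains another. The AP-1 letters stood in 15.5% of Smad2HA/+-only and 11.3% of shared Smad2HA/+ windows, and in 19.9% of Smad3PA/PA-only and 14.6% of shared Smad3PA/PA windows, with 7.81% of all 32851 RefSeq promoters of that length. The GATA letters stood in 23.4%, 15.9%, 17.7% and 16.7% in the same order, with 11.2% of promoters. The SMAD letters varied least, at 27.3%, 25.3%, 27.1% and 25.9%, with 21.0% of promoters. The NR5A letters were found in 9.04%, 6.37%, 9.27% and 7.92%, with 4.72% of promoters. The forkhead letters were found in 3.69%, 4.75%, 6.47% and 4.87%, with 3.65% of promoters, and the TEAD letters in 19.7%, 17.0%, 19.9% and 16.8%, with 14.7%. Promoters were richer in GC, at 53.8%, than all of these windows, at 44.5% to 48.4%, so their shares are not matched for base content.

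Sorting bases rather than peaks showed what the wide peaks add. The bases in all 4 lists came to 83.2 Mb, with 45.7% GC, 17.1 CpG per kb and 177 start sites per Mb. The bases in both Smad2HA/+ lists and no Smad3PA/PA list came to 262 Mb, with 43.6% GC, 9.87 CpG per kb and 11.3 start sites per Mb. That is close to the 8.31 start sites per Mb of bases in no list, which had 41.1% GC and 7.51 CpG per kb. Bases in both Smad3PA/PA lists alone came to 2.13 Mb, with 203 start sites per Mb.

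In Smad2HA/+ cells with vehicle, SMAD peaks were denser where both lines had H3K27ac peaks than where neither had. Midpoints of SMAD2, HA and SMAD3 peaks stood at 164 to 221 per Mb in bases of all 4 lists, at 20.5 to 31.6 per Mb in bases of the Smad2HA/+ lists alone and at 12.1 to 16.2 per Mb in bases of no list. The small set of bases in both Smad3PA/PA lists alone had 203 to 319 per Mb, so these places carried SMAD peaks of Smad2HA/+ cells although they had no H3K27ac peak there. In Smad3PA/PA cells the SMAD4 lists had 106 and 86.6 per Mb in bases of all 4 lists, 44.4 and 40.4 in bases of the Smad2HA/+ lists alone and 17.6 and 16.7 in bases of no list. The PA lists went the other way, with 11.8 and 16.6 against 33.9 and 22.6 per Mb. The SMAD2 lists of these cells differed between replicates, with 51.8 and 10.4 per Mb in bases of all 4 lists from 78766 and 23082 peaks.

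**Figure D5:**
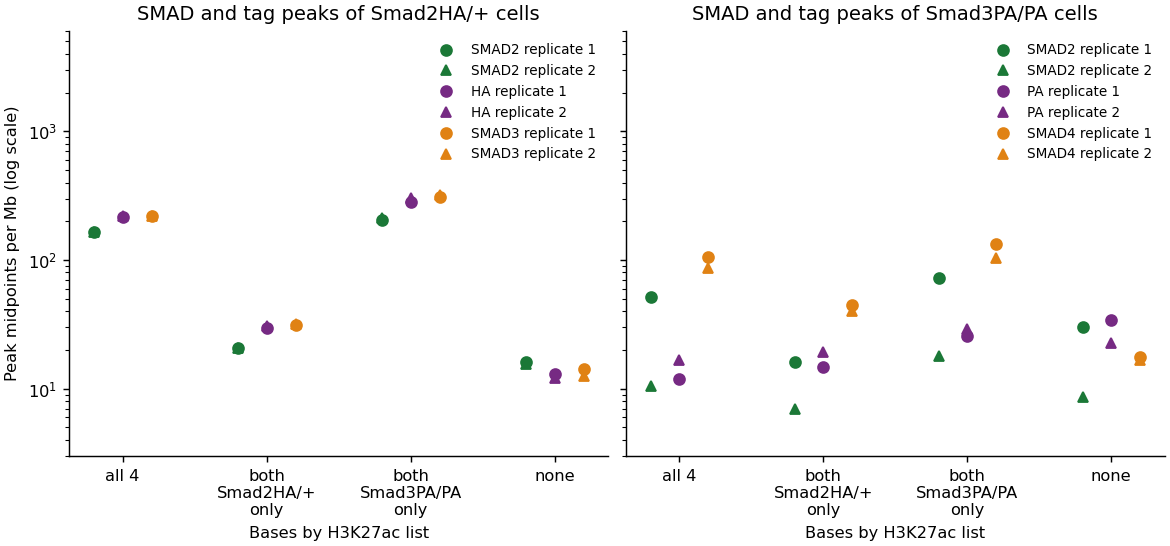
Midpoints of SMAD and tag peaks per Mb, on a log axis, by whether the bases lie in all 4 H3K27ac vehicle lists, in both lists of 1 line only, or in none, with Smad2HA/+ cells on the left and Smad3PA/PA cells on the right. Circles are replicate 1 and triangles replicate 2, and bases of all 4 lists hold 164 to 221 midpoints per Mb in Smad2HA/+ cells.

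Height was compared where every list had a peak. There were 7123 such regions, with a median width of 43.8 kb, and the highest maximum of each list was taken in each, centered on the median of the list. Between lists, maxima correlated across regions with a Pearson r of 0.947 for Smad2HA/+ replicates, 0.822 for Smad3PA/PA replicates and 0.795 to 0.806 between lines, as a description over regions that share libraries. With limma, 229 regions (3.21%) differed at an adjusted p under 0.05, 104 (1.46%) higher in Smad2HA/+ and 125 (1.75%) higher in Smad3PA/PA cells, and 1653 at an unadjusted p under 0.05. In all 229 the values of the lines did not overlap, but neither did they in 3874 of the 7123 regions tested. Without centering 395 were called, 387 of them higher in Smad2HA/+ cells, and with total in place of maximum signal 1839, of which 486 were higher in Smad2HA/+ cells. By total signal 137 of the 229 kept their direction and 65 were called. Without Smad2HA/+ replicate 1 or 2 only 14 and 9 were called, all higher in Smad3PA/PA cells, and without Smad3PA/PA replicate 1 or 2 there were 1032 and 1036, where the lone library is assumed to vary like the other line. The log2 maxima spread more over regions in Smad2HA/+ lists (interquartile range 0.837 and 0.822) than in Smad3PA/PA lists (0.621 and 0.652), whose median maximum over these regions was 16 fragments in replicate 1, against 150 in Smad2HA/+ replicate 1.

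Regions higher in Smad2HA/+ cells had a median width of 62.5 kb, and 71.2% held a start site, against 70.6% of all tested. Regions higher in Smad3PA/PA cells had a median of 26.6 kb, and 44.8% held one. Pdzrn3, which encodes a ubiquitin ligase with PDZ domains, lay in a region of 242 kb with maxima of 218 and 199 fragments in Smad2HA/+ and 12 and 11 in Smad3PA/PA lists, a centered log2 difference of 1.04 (SE 0.17, adjusted p = 0.0206 by limma). The largest difference in this direction, 1.14, stood 9.43 kb from Sorbs2, and Tmod1, Cldn18, Slc35f5 and Frmd4b were among the first 10 as well. In the other direction, 6 of the first 10 reached over 1000 fragments in all 4 lists, and these 6 were the only such regions tested. The median over all tested regions was 150 fragments in Smad2HA/+ replicate 1 and 16 in Smad3PA/PA replicate 1. No region was left out for repeated sequence or poor mapping, and whether such heights reflect H3K27ac was not tested. The highest of the 6, on chromosome 2 at Gm10800 (chr2:98660960-98670544), reached 140182 and 182165 fragments in Smad2HA/+ and 69344 and 83252 in Smad3PA/PA lists. On the centered scale it was lower in Smad2HA/+ cells by a log2 difference of -2.07 (SE 0.44), while its raw fragments were higher there.

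Of the 93 genes of the lists with a promoter in such a region, 9 met a called one. Of all regions 3.21% were called, but that is a share of regions and not of genes. The share over all protein-coding genes was not counted, so no excess can be read from these counts. The listed genes were chosen with earlier results of these data known, and a wide region holds several promoters. Called higher in Smad2HA/+ cells were regions at Smad7, Tgif1, Myc, Junb, Klf6, Hsd3b1 and Tagln, and higher in Smad3PA/PA cells regions at Wt1 and Bmpr1b. The region of 301 kb at Smad7 reached 442 and 412 fragments against 25 and 30. This is a centered log2 difference of 0.82 (SE 0.12, adjusted p = 0.0126 by limma), and the GDF9 lists gave 0.57 at the same region. The peaks at the Smad7 promoter reached 222 and 412 against 21 and 20, so the highest maximum can lie elsewhere in the region. Wt1, a zinc finger factor of granulosa cells, reached 60 and 57 against 15 and 13, a difference of -1.07 (SE 0.21, adjusted p = 0.0319 by limma), and -1.22 in the GDF9 lists. The region of 387 kb at Myc had a difference of 0.76, and 0.82 in the GDF9 lists. It reached 457 and 511 fragments against 34 and 31, and the peaks at the Myc promoter 167 and 511 against 16 and 13. The region at Junb, with 0.57, had -0.09 in the GDF9 lists. By list, 3 of 25 genes of the TGF-beta and SMAD pathway met a called region, with a median difference of 0.11, and 3 of 12 immediate early genes, with a median of 0.36. The 12 housekeeping genes had a median of 0.27 and a range of 0.04 to 0.56, and all tested regions a median of 0.01. Bmpr1b met 2 regions, with differences of -0.71 for the called one and 0.00 for the other. Of the 229 called regions, 197 could be compared in the GDF9 lists, 191 had the same direction there and 84 were called, by a fit on separate libraries of the same lines. That fit called 412 of all 6674 regions compared, and the share of all regions with the same direction was not counted. The GDF9 lists also differed in depth, with median maxima of 108 and 125 fragments in Smad2HA/+ and 12 and 12 in Smad3PA/PA lists.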

How the data were processed

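CUT&RUN libraries were aligned with Bowtie2 to mm10 (GRCm38) and peaks were called by the authors with SEACR at default parameters, whose stringent lists were deposited, and RNA-seq reads were processed with STAR 2.7.11b, featureCounts 2.1.1 and DESeq2 1.48.2, per the labels and the study's methods. The control used for calling and the strand setting are not stated. The deposited peak signal (total and maximum) is coverage scaled by 100000 over the E. coli fragments of the library, and the deposited RNA signal is reads per gene divided by 1 size factor. Whole reads could be recovered for both vehicle RNA libraries, with 100% of values whole within 0.05 reads, but no RNA test was made. Fragments are maximum signal divided by the smallest step of the list, and at least 99.97% of maxima were whole within 0.02 fragments. From 4 to 12 peaks a list, off chromosomes 1 to 19, X and Y, were left out, and 3 columns of the RNA table without a header were not used.

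Overlap was at least 1 bp. Regions of a line are merged peaks with both replicates present. Promoters were 3 kb on either side of protein-coding starts in GENCODE vM21. Tests were the exact permutation test (scipy 1.17.1) and limma 3.58.1 (R 4.3.3, empirical Bayes with trend, Benjamini-Hochberg) on log2 maximum signal. On simulated data of 7123 regions limma recovered 97% of 100 changes of 1 and 100% of 100 changes of 2 on the log2 scale, with 13 false calls. The simulation gave every list the same normal spread (SD 0.193), while replicates of the lines agreed to different degrees. These rates therefore do not carry over to the measured lists. Files were read with Python 3.11.15 and pandas 2.3.3. One listed gene is counted but not reported by itself here. The members, the 12 lists (148 genes) and the tests were chosen with earlier results of these data known. Named genes are members of the lists, the 10 called regions with the largest difference in each direction and the 10 highest regions of each line alone, by the nearest start within 100 kb, and the 5 wide peaks of each list that held the most narrow peaks. Outside this rule, chosen after their values were seen, are the genes at the widest peaks and those named for their RNA among promoters met in 1 line. In all, 37 alternatives were planned: equal numbers of peaks, the top 50%, gaps of up to 1 kb joined, 50% of the shorter peak shared, promoters of 1 kb, other signals and scalings, a replicate block, and 1 list left out.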

Additional observations from a re-analysis of the deposited data

How the results depend on the processing

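The ratio of Smad2HA/+ to Smad3PA/PA was 8.88 for median width, 3.79 for covered length and 0.344 for number of peaks. With the same number of peaks per list these were 6.49, 7.91 and 1, the last by construction. With the 50% of peaks with the highest maximum, width gave 12.3 and length 4.32, and with gaps of up to 1 kb joined the number gave 0.366. Containment of 90.2% became 96.1% with equal numbers and 79.9% with the top 50%. Smad2HA/+-only regions numbered 542, and 2479 with equal numbers and 69 with the top 50%. Smad3PA/PA-only regions numbered 1036, and 64 with equal numbers. Leaving out 1 list gave 829 to 1249 and 1348 to 2023 such regions, and 9 to 1036 limma calls in place of 229. The calls were 1839 with total signal, 395 without centering, 138 in the upper 50% by signal and 412 in the GDF9 lists. The cause was not tested, beyond fewer lists or peaks. Of the 20 named regions, 2 turned: Adra2a to 0.49 in the GDF9 lists and Ccdc91 to 0.19 with total signal. In the GDF9 lists 12 kept their direction and call. A further 3 kept their direction but were not called: Cntnap5a (0.47), Gm45844 (0.59) and Frmd4b (0.33). Sorbs2, Tmod1, Slc35f5 and Ccdc91 could not be compared there. Promoters of 1 kb left the promoter shares at 25.3% and 24.4%.

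Replicate numbers are only shared, as the deviations of the replicate 1 lists of both lines from their group means correlated at -0.0091. With the number as a block, limma called 664 regions, among them all 229. Within replicate numbers 1 and 2, the paired ratios were 8.86 and 8.90 for width, 3.96 and 3.62 for covered length, and 0.354 and 0.334 for number of peaks.

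Peak lists hold no coverage below the caller's threshold, so the absence of a peak is no measure of absent acetylation in either line. One fragment weighs 1.21 or 1.45 signal units in Smad3PA/PA lists and 0.203 or 0.197 in Smad2HA/+ lists, and the part of depth was not tested.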

Other observations

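The share of a chromosome's own regions that were found in 1 line only was larger on X than on any autosome. On X, 29 of 206 Smad2HA/+ regions (14.1%) and 32 of 275 Smad3PA/PA regions (11.6%) met no peak of the other line. On autosomes the shares ran from 3.05% (chromosome 11) to 8.67% (chromosome 16) in Smad2HA/+ cells and from 3.54% (chromosome 11) to 7.69% (chromosome 18) in Smad3PA/PA cells. No test was made of this order.

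Repeats took up part of the summit windows: 18.9% of the bases were soft-masked in windows of Smad2HA/+-only regions, 13.0% in shared Smad2HA/+ regions, and 13.7% and 13.9% in the same sets of Smad3PA/PA cells. Several genes of stromal cells had RNA in Smad3PA/PA cells without a peak at the promoter in any of the 4 vehicle lists: Col1a1, a fibrillar collagen, had 225 normalized counts per kb as the mean of 2 libraries, Dcn, a matrix proteoglycan, 63.1, and Col1a2 40.6. Acta2 and Tagln, genes of smooth muscle and cultured stromal cells, had 4455 and 6412, with peaks at both promoters in all 4 lists.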
